A study of Mus musculus with 6 samples.

Results

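The genes of NAD salvage and nicotinamide use around Nmrk2 were measured in 6 mouse heart samples. The genes considered were Nmrk1, Nmrk2, Nampt, Nmnat1, Nmnat3, Naprt, Nnmt and Cd38, chosen by the measured difference of Nmrk2, which stood among the genes with the greatest excess in the Id cKO heart over WT and Id control. That excess is therefore a description here and carries no test. Of the 8 genes, 7 had a probe set annotated to that symbol alone, 1 probe set each, among 19938 genes named in this way. Cd38 was not analysed here.

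Each heart sample, called a heart below, was hybridised to 1 Affymetrix Mouse Gene 1.0 ST array, and all came from adults of 6 months (P180). The groups were 1 wild type (WT), 2 Id control, 1 Id cKO, 1 Id cKO treated with mouse recombinant IGFbp3, and 1 Id cKO left untreated beside it. Id control 1 was Id1F/+Id3-/-, with a floxed and a wild-type Id1 allele, without Id3 and without Cre. Id control 2 was Tie2Cre+Id1-/-Id3+/-, without Id1 in any cell and with 1 Id3 allele. The Id cKO heart was Tie2Cre+Id1F/-Id3-/-. For the treated and untreated hearts, called the incubated pair here after the series' design text, the labels say Id cKO without listing alleles. Tie2Cre is active in endothelial and blood cells, so that heart muscle cells keep the floxed Id1 allele, whereas the null alleles of Id1 and Id3 are carried by every cell. The mouse strain, the number of animals per sample and the way the pair was incubated were not in the sources used here. The 2 Id control samples differ in genotype, and any p-value below measures only the spread between them, which may also be technical. The labels carry 3 date codes, of unstated meaning. One covers WT, Id cKO and Id control 2, another Id control 1, and the third the incubated pair.

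NAD is the coenzyme that carries electrons from fuel to the respiratory chain, and enzymes such as sirtuins and PARPs break it down to nicotinamide. Cells rebuild it mainly by salvage. Nampt makes nicotinamide mononucleotide from nicotinamide, the nicotinamide riboside kinases Nmrk1 and Nmrk2 make the same mononucleotide from nicotinamide riboside, and Naprt starts a separate branch from nicotinic acid. The Nmnat enzymes then complete the dinucleotide, Nmnat1 in the nucleus and Nmnat3 in mitochondria. Nnmt takes nicotinamide out of this cycle by methylating it, and Cd38 consumes NAD. Nampt is the principal route in heart muscle, and Nmrk2 is the kinase typical of striated muscle.

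The incubated pair was deposited on a lower log2 scale, with array medians of 4.45 and 4.51, against 5.73 to 5.83 for the other 4 arrays. Levels below are therefore given after quantile normalization, which gives all 6 arrays one distribution, and are called normalized log2 levels. Comparisons within the first set or within the pair used the deposited values. Normalization leaves differences between the sets that are specific to a gene. Between the Id cKO and the untreated Id cKO heart, which share a group name, 3.44% of 10239 genes were at least 2-fold higher in the first and 4.97% at least 2-fold lower. Against the treated heart the shares were 1.52% and 4.13% of 10126 genes. The incubated pair differs from the other arrays in set as well as in treatment, and from the Id controls also in sex pattern. These cannot be told apart. Xist was at 7.71 to 8.23 in the Id control and Id cKO hearts and at 3.59 to 3.92 in WT and the pair. The Y-linked Eif2s3y was at 2.48 to 2.81 in the former and at 7.01 to 7.85 in the latter. The pair thus shares its sex pattern with WT, and the Id cKO heart with the Id controls. Comparisons of the pair with Id control, and of WT with Id control or Id cKO, are therefore also between unlike sex patterns. Igfbp3 was at 11.22 in Id cKO, at 10.68 and 10.69 in the pair, and at 7.38 to 7.47 in the other hearts. Cardiomyocyte markers, among them Myh6 and Tnnt2 (12.91 to 13.60 and 13.14 to 13.51), were high on every array, and no marker gene was at 0 on any array.

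Nmrk2 was low in the hearts without the Id cKO label and higher in all 3 hearts that carry it. It stood at a normalized log2 level of 6.07 in WT, 6.21 in Id control 1, 6.73 in Id control 2, 10.13 in Id cKO, 8.15 in the treated and 8.29 in the untreated heart. The groups did not overlap, and the incubated pair lay between the controls and the Id cKO heart. The closest 2 arrays across the groups were 1.42 apart, or 2.68-fold. By rank within each array, Nmrk2 exceeded 53.4% of all named genes on the WT array, and 55.4% and 63.7% on the Id control arrays. It exceeded 97.7% on the Id cKO array, and 85.6% and 87.0% on the treated and untreated arrays. Quantile normalization keeps such ranks, so they are no separate check of the normalized levels. Nmrk2 thus lay near the middle of the genes in the controls and in the upper part in the Id cKO hearts. As deposited, it was 12.7-fold higher in Id cKO than in the mean of the Id controls (log2 difference 3.66, with 3.40 against Id control 2, which shares its date code, and 3.92 against Id control 1), the 3rd highest difference of 11310 genes. Against WT it was the 2nd highest of 11478 genes, after Xist. These values chose the gene set.

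**Figure D1:**
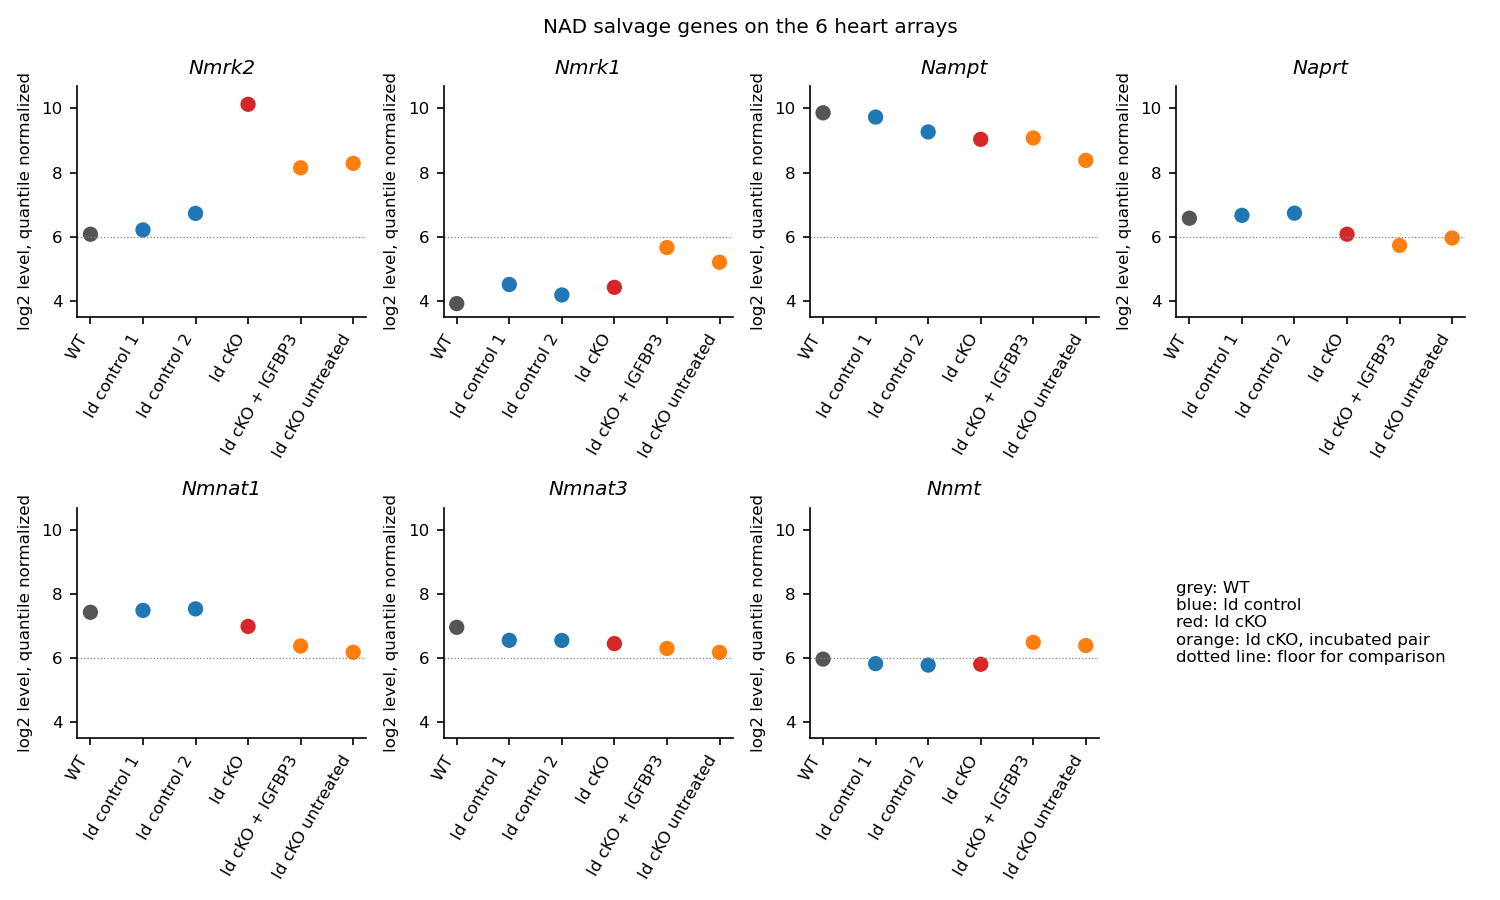
Normalized log2 level of the 7 measured genes on each of the 6 arrays, 1 point per array, coloured by group, with the floor of 6 used for comparisons as a dotted line. Nmrk2 stands at 8.15 to 10.13 in the 3 Id cKO hearts and at 6.07 to 6.73 in the others, while Nampt, Naprt, Nmnat1 and Nmnat3 are lowest in Id cKO hearts and Nmrk1 stays below the floor.

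The stretch upstream of Nmrk2 is shown because Id1 and Id3 act by holding E proteins away from the E-box, the motif CANNTG, and that of Nampt because it runs the other way in these hearts. RefSeq's table for build GRCm38.p6 had an entry for 6 of the 8 genes by symbol. The 250 bases before the gene start lie at chr10:81202038-81202287 on the minus strand for Nmrk2 and at chr12:32820085-32820334 on the plus strand for Nampt. They are written 5′ to 3′ along the gene, with every E-box in capitals and, for Nmrk2, also the motif TATAAA.
Nmrk2: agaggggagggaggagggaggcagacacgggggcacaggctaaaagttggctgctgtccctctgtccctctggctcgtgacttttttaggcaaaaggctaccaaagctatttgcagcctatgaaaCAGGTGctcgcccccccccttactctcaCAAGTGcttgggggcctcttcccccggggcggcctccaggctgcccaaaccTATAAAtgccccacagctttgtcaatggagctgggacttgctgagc
Nampt: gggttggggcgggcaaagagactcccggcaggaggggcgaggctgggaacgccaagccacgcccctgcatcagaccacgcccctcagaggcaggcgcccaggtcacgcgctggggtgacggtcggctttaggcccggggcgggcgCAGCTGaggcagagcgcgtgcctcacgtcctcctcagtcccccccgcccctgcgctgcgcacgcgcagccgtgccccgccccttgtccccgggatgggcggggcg
The Nmrk2 stretch held 2 E-boxes, which began 125 and 97 bases before the gene start, and 1 TATAAA, which began 46 bases before it. The Nampt stretch held 1 E-box, 105 bases before the start, and not the second motif. The E-box pattern reads alike on both strands, and 66.2% of the 32851 upstream stretches in the table held at least 1, so an E-box there is common. TATAAA, searched on both strands, was in 12.4%. The E-box form bound by the circadian clock factors, CACGTG, is a subset of the E-box pattern and was in 6.02% of the stretches and in neither of these 2. A match is only a description of the letters.

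The incubated pair gave Id cKO arrays that had no part in choosing Nmrk2, although the control arrays are shared with the comparison that did. Across the 2 arrays of the pair, Nmrk2 was 3.36-fold higher than in Id control, a log2 difference of 1.75 ± 0.21 (limma SE; 2 arrays against 2) with a limma adjusted p of 0.0126. The pair lay between 1.42 and 2.08 above each Id control array. Its 2 arrays are 1 treated and 1 untreated heart, are not replicates and may not be independent. They give the SE no spread of their own, since it rests on the Id control arrays. Against the lone WT heart the difference was 2.14 ± 0.25 (limma SE), 4.42-fold, with a limma adjusted p of 0.0161. Nmrk2 had the 149th highest of 10251 differences against Id control and the 117th of 10272 against WT. These tests sit on a high background, since 16% of genes passed limma in the higher direction against Id control and 13.1% against WT. Measured by size, 2.7% of genes were at least 2-fold above Id control in all 4 pairs of arrays, and 5.11% at least 2-fold above WT on both arrays of the pair. Nmrk2 was in each of these counts. Within the Id cKO label the level was not uniform either, as the Id cKO heart lay 1.98 above the treated and 1.84 above the untreated heart.

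Nmrk1, the second riboside kinase and one found in most tissues, was low on all 6 arrays. Normalized log2 levels were 3.91 (WT), 4.51 and 4.18 (Id controls), 4.42 in Id cKO, and 5.66 and 5.20 in the treated and untreated hearts. It lay under the floor of 6 in every comparison and was therefore not tested. Of the first set, the Id cKO value fell between the Id control values, so the pattern of Nmrk2 there was not seen in Nmrk1. The pair was higher after normalization, and so by rank within each array. Nmrk1 exceeded 46.7% and 38.2% of named genes on the treated and untreated arrays, against 15.2% to 25.1% on the others. Deposited values of the pair are on a lower scale and are not set against the others here.

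Nampt, which makes the mononucleotide from nicotinamide, was abundant everywhere and lowest in Id cKO hearts. Its normalized log2 level was 9.86 in WT, 9.73 in Id control 1, 9.27 in Id control 2, 9.04 in Id cKO, 9.08 in the treated and 8.38 in the untreated heart. The groups did not overlap, but the Id cKO and treated hearts lay close to Id control 2. In the deposited values Id cKO differed by -0.79 from WT and by -0.50 from the Id control mean, or by -0.28 from Id control 2 alone. The incubated pair differed from Id control by -0.77 ± 0.19 (limma SE, limma adjusted p = 0.0442) and from WT by -1.13 ± 0.23 (limma adjusted p = 0.0343). These calls were lost with the treated heart alone. With the treated heart alone the difference from Id control was -0.42 (limma adjusted p = 0.254) and that from WT -0.78 (limma adjusted p = 0.112).

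Naprt, the entry point for nicotinic acid, was likewise lowest in Id cKO hearts. WT stood at a normalized log2 level of 6.58, the Id controls at 6.67 and 6.73, Id cKO at 6.08, and the treated and untreated hearts at 5.73 and 5.96. The controls were tightly grouped and every Id cKO heart lay beneath them, by 0.50 at the closest. The pair differed from Id control by -0.86 ± 0.11 (limma SE, limma adjusted p = 0.0145) and from WT by -0.73 ± 0.14 (limma adjusted p = 0.03). With the untreated heart alone, the difference from WT was -0.62 and did not pass (limma adjusted p = 0.058). In the first set, Id cKO was at -0.62 against the Id control mean and -0.47 against WT, as deposited.

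Nmnat1, the nuclear enzyme that joins the mononucleotide to ATP, was lower in all 3 Id cKO hearts, most of all in the incubated pair. On the normalized log2 scale, WT gave 7.43, the Id controls 7.49 and 7.54, Id cKO 6.99, and the treated and untreated hearts 6.38 and 6.18. The 3 hearts without the Id cKO label were nearly alike and the 3 with it were all lower. The pair differed from Id control by -1.23 ± 0.11 (limma SE, limma adjusted p = 0.0104), with all 4 pairs of arrays at least 2-fold apart, and from WT by -1.15 ± 0.14 (limma adjusted p = 0.0167). It was the member counted as 2-fold lower in both comparisons, where 1.66% and 2.8% of all genes were. With each array centred on its median instead, it was no longer 2-fold below WT on both arrays. In the deposited values the Id cKO heart was at -0.55 against Id control and -0.40 against WT.

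Nmnat3, its mitochondrial counterpart, varied little. Its normalized log2 level was 6.96 in WT, 6.56 and 6.55 in the Id controls, 6.45 in Id cKO, and 6.30 and 6.18 in the treated and untreated hearts. All Id cKO values were beneath all others, but the Id cKO heart lay close to the Id control mean as deposited, a log2 difference of -0.09. The pair was at -0.31 ± 0.11 (limma SE) from Id control, which did not pass (limma adjusted p = 0.0943), and at -0.72 ± 0.14 from WT, which did (limma adjusted p = 0.0299). The latter did not pass with the treated heart alone (limma adjusted p = 0.0592) or with arrays centred on their medians (limma adjusted p = 0.0501).

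Nnmt, which methylates nicotinamide for disposal, did not follow the Id cKO label. Its normalized log2 level was 5.97 in WT, 5.83 and 5.78 in the Id controls, 5.81 in Id cKO, and 6.49 and 6.39 in the treated and untreated hearts. The Id cKO heart fell among the controls and only the incubated pair was higher. The pair was 0.64 ± 0.11 (limma SE) above Id control (limma adjusted p = 0.0218) and 0.47 ± 0.14 above WT, which did not pass (limma adjusted p = 0.0695, or 0.0419 with arrays centred on their medians). By rank within each array, Nnmt exceeded at least 58.3% of named genes on both arrays of the pair, against at most 51.7% on the others. Quantile normalization keeps such ranks, so they are no separate check. The pair's deposited values, 5.70 and 5.58, are on a lower scale and are not set against the others.

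**Figure D2:**
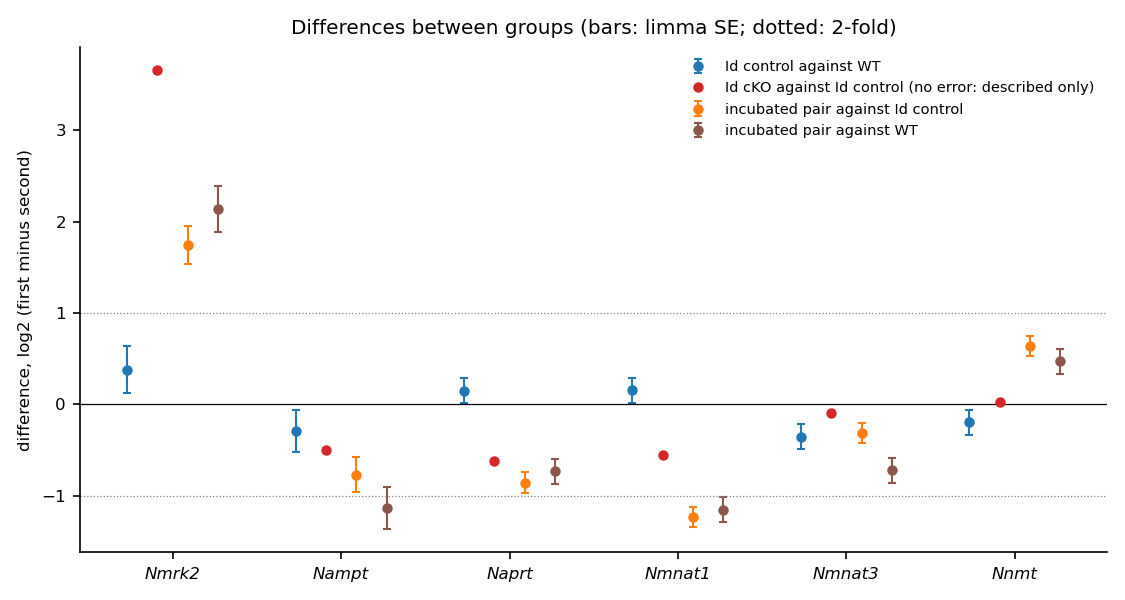
Log2 difference, first-named group minus second, of the 6 compared genes in 4 comparisons. Bars are limma SE, and the Id cKO against Id control points have none because that comparison chose the genes. Nmrk2 is above 0 in all 4, and Naprt and Nmnat1 are below 0 in each comparison of Id cKO hearts with others but at 0.15 for Id control against WT.

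Read over the 6 genes that passed the floor, limma called 5 in the incubated pair against Id control, with Nmrk2 and Nnmt higher and Nampt, Naprt and Nmnat1 lower, where 16% and 18.9% of all genes were called higher and lower. Against WT it called 5 as well, Nmrk2 higher and Nampt, Naprt, Nmnat1 and Nmnat3 lower, where 13.1% and 13.5% of genes were. The median difference of the 6 genes was -0.54 against Id control and -0.73 against WT, beside -0.04 and -0.03 for all genes compared. Counted over all 6 arrays, 4 of the 6 (Nampt, Naprt, Nmnat1 and Nmnat3) had every Id cKO value below every other value, against 17.8% of 10099 genes, and Nmrk2 had every value above, against 14% of genes. For 0.376% of genes, Nmrk2 among them, all those pairs of arrays were at least 2-fold apart in the higher direction. These counts over 6 arrays include the arrays that chose Nmrk2, and nothing is read from them for that gene. In the first set, Nmrk2 was the 1 member at least 2-fold from both Id control arrays, where 0.698% of genes were higher and 0.424% lower, and the 1 member 2-fold from WT, where 2.2% were higher and 0.967% lower.

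**Figure D3:**
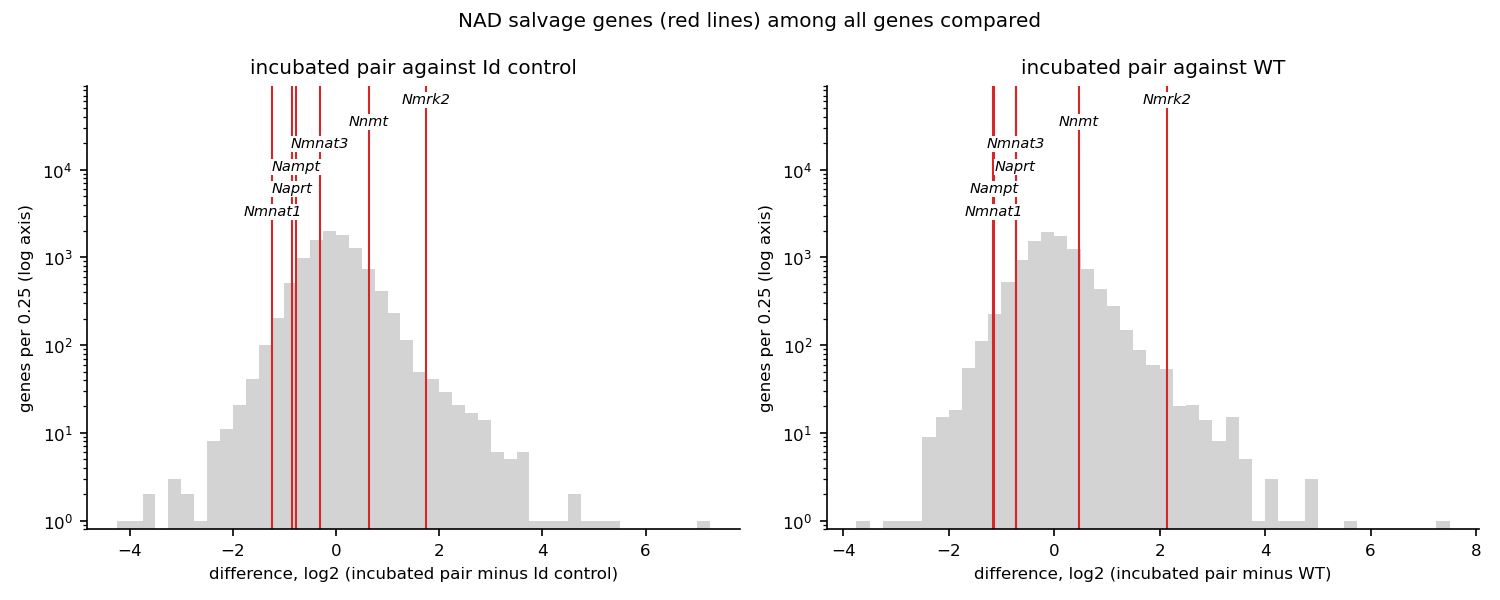
Number of genes per step of 0.25 in the log2 difference between the incubated pair and Id control (left) or WT (right), on a log axis, with the 6 compared genes as red lines. Nmrk2, at 1.75 and 2.14, lies in the upper tail, and Nmnat1, at -1.23 and -1.15, in the lower one.

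Markers of several cell types in a heart sample differed between the same arrays. The summed normalized level of 8 cardiomyocyte markers was 15.75 to 16.15 (log2) in the Id cKO hearts and 16.20 to 16.32 in the others. In Id cKO against Id control 0 of these 8 genes were 2-fold apart (median -0.13). In the incubated pair against Id control 8 of 8 were lower and 3 passed limma as lower, where 18.9% of all genes did. The troponin gene Tnni3 was 2-fold lower and the median was -0.40. Endothelial markers ran the other way, with a sum of 12.42 to 12.77 in the Id cKO hearts and 11.86 to 11.92 in the others. Skeletal muscle markers, listed because Nmrk2 is a muscle gene, summed to 8.28 to 8.36 in the Id cKO hearts and 8.34 to 8.44 in the others, and 6 of the 8 were under the floor. Of the 4 atrial markers, Myl7, Myl4 and Sln were highest in Id control 2, with Myl7 at 11.90 against 4.76 to 5.56 elsewhere. The fourth, Nppa, which ventricular muscle under load also makes, was at 9.93 in WT, 10.91 in Id control 1, 13.58 in Id control 2, 13.94 in Id cKO, and 13.62 and 13.47 in the treated and untreated hearts. Of the adipocyte markers, Car3, Adipoq, Plin1, Retn, Lep and Cidec were also highest in Id control 2, and Fabp4 was not. Car3 was at 9.49 there, against 3.88 to 5.44 elsewhere. Several lists were higher in the pair than in Id control. Of the cardiac stress genes 7 of 7 were higher and 4 passed limma (median 0.96), of the blood and platelet markers 5 of 5 were higher and all 5 passed (median 0.96, highest Alas2 at 2.81), and of the macrophage markers 8 of 8 were higher and 4 passed (median 0.44). Fibroblast markers were higher in 8 of 8, with 1 passing (median 0.51), smooth muscle and pericyte markers in 5 of 8, with 4 passing as higher and 1 as lower (median 0.41), and endothelial markers in 8 of 8, with 6 passing (median 0.93). These counts stand beside the 16% of all genes that passed as higher. Not all of these lists were higher in Id cKO against Id control. There cardiac stress genes were higher in 7 of 7 (median 1.22) and endothelial markers in 7 of 8 (median 0.50). Macrophage markers were lower in 7 of 8 (median -0.39), fibroblast markers in 6 of 8 (median -0.50) and blood and platelet markers in 4 of 4 (median -0.48). Smooth muscle and pericyte markers were split, 4 higher and 4 lower. Leaving out Id control 2 put the difference of Nmrk2 between the pair and Id control at 2.01, and leaving out Id control 1 put it at 1.49. In whole hearts, fewer cells of a type and less RNA per cell cannot be told apart, and the part of cell composition in these results was not tested.

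Id control against WT asked whether the partial loss of Id alleles moved these genes, although these groups also differ in sex pattern. As deposited, Nmrk2 was 0.38 ± 0.26 (limma SE) above WT, with 0.12 and 0.64 for the single arrays, which is about the spread between the 2 Id control arrays (SD 0.37). Nampt was at -0.29 ± 0.23, Nmnat3 at -0.35 ± 0.14 and Nnmt at -0.20 ± 0.14, while Nmnat1 and Naprt were each at 0.15 ± 0.14. None of the 6 was 2-fold apart, where 0.105% of 11407 genes were higher and 0.0964% lower on both arrays. In limma, 0 of 6 members and 0 of all genes passed an adjusted p of 0.05, with 828 genes (7.26%) at an unadjusted p under 0.05, none of them a member.

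Treated against untreated Id cKO asked whether IGFBP3 altered these genes, with 1 array on each side. As deposited, 2 members lay above the floor. Nmrk2 was at 7.37 with IGFBP3 and 7.45 without, a difference of -0.08 ± 0.30 (limma SE), which is smaller than its error. Nampt was at 8.28 with IGFBP3 and 7.54 without, 1.67-fold apart at 0.74 ± 0.26 (limma SE, limma adjusted p = 0.211). Neither was 2-fold apart, where 0.495% of 7474 genes were higher and 0.803% lower, and 0 genes passed limma, with 23% at an unadjusted p under 0.05, Nampt among them. The errors rest on the Id control arrays, since neither heart was repeated. The treated and untreated arrays held 1586 exactly equal values among 35557 probe sets, against 0 to 32 for any other 2 arrays. The reason was not tested, and the 2 arrays of the pair may not be independent.

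Other genes of NAD metabolism were read from lists by role. Of the genes around the salvage route, 8 of 9 with a probe set passed the floor in Id cKO against Id control. Of these, 0 were at 2-fold, where 0.698% of all genes were higher and 0.424% lower. Their median was -0.30, beside -0.03 for all genes. The largest differences after Nt5c1a were -0.47 for the nucleotidase gene Nt5c2, -0.41 for Slc29a1 and -0.38 for Slc25a51, the mitochondrial NAD carrier. Nt5c1a, a cytosolic nucleotidase of striated muscle that hydrolyses AMP, was at -0.71 there and -1.81 ± 0.11 (limma SE, limma adjusted p = 0.00675) in the incubated pair against Id control. In that comparison it was the 1 gene of 6 at 2-fold lower, where 1.66% of all genes were. The adenosine transporter gene Slc29a1, at 0.44 ± 0.11 (limma adjusted p = 0.0447), was the 1 that passed as higher, where 16% of all genes did. The purine nucleoside phosphorylase gene Pnp, which also splits nicotinamide riboside, was at 0.77 ± 0.25 and did not pass (limma adjusted p = 0.0748).

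De novo synthesis from tryptophan is a liver pathway. Of the 12 genes listed for it and its side branches, 9 were under the floor in Id cKO against Id control. The kynurenine aminotransferases belong to a side branch, which leads to kynurenic acid and not to NAD. The 2 kynurenine aminotransferase genes that could be compared across sets were lower in all 3 Id cKO hearts than in all others, as were 17.8% of all genes. For Kyat3 the levels were 7.99 (WT), 7.68 and 7.46 (Id controls), 6.88 in Id cKO, and 6.52 and 6.25 in the treated and untreated hearts (normalized log2 levels). The pair differed from Id control by -1.19 ± 0.13 for Kyat3 (limma SE, limma adjusted p = 0.0122) and -1.03 ± 0.11 for Kyat1 (limma adjusted p = 0.0118). Kyat3 was also 2-fold lower in Id cKO than in WT, at -1.05 as deposited. Against Id control the Id cKO heart was at -0.71 for Kyat3, -0.57 for the formamidase gene Afmid and -0.54 for Kyat1.

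Of the 3 genes that link NAD to NADP, both mitochondrial ones were lower in every Id cKO heart than in every other heart, as were 17.8% of all genes. Nnt, the transhydrogenase that makes NADPH from NADH, had levels of 11.08 (WT), 11.26 and 11.27 (Id controls), 10.61 in Id cKO, and 9.94 and 9.89 in the treated and untreated hearts. Nadk2, the mitochondrial NAD kinase, was at 8.91, 8.84 and 8.45 in WT and the Id controls, 8.07 in Id cKO, and 7.70 and 7.37 in the pair. In the pair both passed as lower against Id control, as did 18.9% of all genes. Nnt was at -1.35 ± 0.11 (limma SE, limma adjusted p = 0.01) and Nadk2 at -1.11 ± 0.17 (limma adjusted p = 0.0179). In Id cKO against Id control Nnt was at -0.67, Nadk2 at -0.63 and Nadk at 0.07. In the pair Nadk, the cytosolic kinase, was at 0.25 ± 0.13 and did not pass (limma adjusted p = 0.192). Its level in every Id cKO heart was above that in every other, by 0.03 at the closest, as for 14% of all genes.

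Enzymes that use NAD showed no common direction. In Id cKO against Id control 15 of 26 compared genes were higher and 11 lower, 0 of them 2-fold, with a median of 0.05 beside -0.03 for all genes. The largest differences were -0.79 for Art3, 0.59 for Parp14 and for Parp9, and 0.47 for Parp11, all ADP-ribosyltransferase family genes. In the incubated pair against Id control 2 of 24 passed limma as higher and 5 as lower (20.8%), near the 18.9% of all genes called lower and below the 16% called higher, with a median of -0.09. The sirtuin genes Sirt1 at -0.83 ± 0.11 (limma SE, limma adjusted p = 0.0147) and Sirt5 at -0.78 ± 0.11 (limma adjusted p = 0.0159) and the DNA repair gene Parp1 at -0.74 ± 0.11 (limma adjusted p = 0.0174) were among the lower. Tiparp, a mono-ADP-ribosyltransferase induced by the aryl hydrocarbon receptor, was 2-fold higher at 1.38 ± 0.16 (limma adjusted p = 0.0125). Over all 6 arrays, 5 of the 24 had every Id cKO value below every other, which is near the 17.8% of all genes.

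Against WT, the NAD list genes at least 2-fold apart in the pair were Nt5c1a at -1.70, Kyat3 at -1.61, Nadk2 at -1.38 and Nnt at -1.17, all lower, and Tiparp at 1.18. Of all genes, 2.8% were 2-fold lower there and 5.11% 2-fold higher.

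Disposal of nicotinamide involves aldehyde oxidase as well as Nnmt. In Id cKO against Id control Nudt12 was at -0.39, Nudt13 at 0.14 and Aox1 at -0.05. Aox1 was at 0.43 ± 0.20 (limma SE) in the pair against Id control and did not pass (limma adjusted p = 0.152), while the NADH pyrophosphatase gene Nudt12 was at -0.52 ± 0.12 and did (limma adjusted p = 0.0388). Nmrk2 was also described as a protein that binds the muscle laminin receptor, integrin alpha7 beta1. Of 4 genes of that receptor and its partners, 0 were 2-fold apart in Id cKO against Id control, with Itgb1bp2 at -0.38, Itga7 at -0.26, and Ilk and Itgb1 both at 0.09. In the pair, Itga7 was at -0.48 ± 0.14 (limma adjusted p = 0.0621) and Itgb1 at 0.06 ± 0.11 (limma adjusted p = 0.713). The 1 gene of the 4 that passed was Itgb1bp2, a muscle protein that binds the integrin beta1 tail, at -0.62 ± 0.11 (limma adjusted p = 0.0227). Of all genes, 18.9% passed as lower there.

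**Figure D4:**
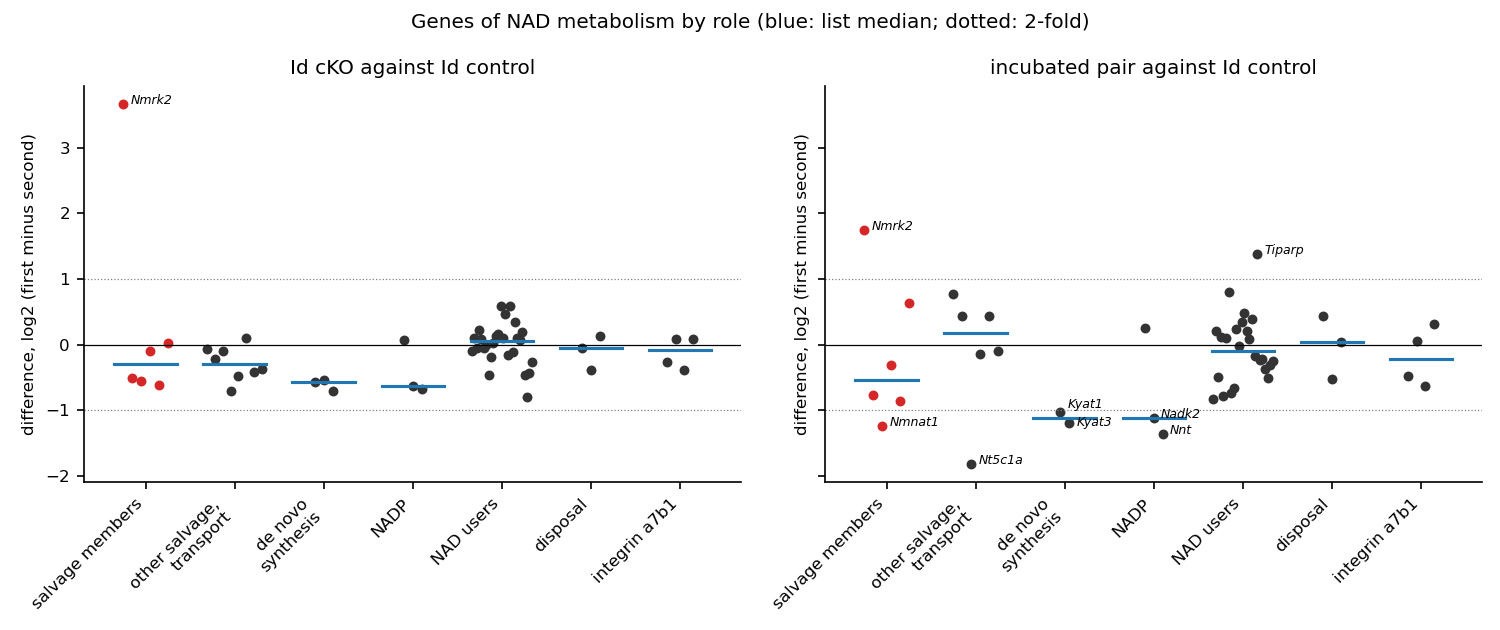
Log2 difference of each compared gene of NAD metabolism, by role, in Id cKO against Id control (left, deposited values) and in the incubated pair against Id control (right, quantile normalized). Blue bars are list medians and dotted lines mark 2-fold. Nmrk2 is the 1 gene beyond 2-fold upward on the left, and Nt5c1a, at -1.81, is the lowest point on the right.

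The 5 genes whose normalized levels ran most like those of Nmrk2 over the 6 arrays were Piezo2 (Pearson r = 0.99), Col4a2 (0.99), Fxyd6 (0.98), Plau (0.98) and Upp1 (0.97), out of 2744 genes with a range of at least 1 and a highest level of at least 6. The correlation is a description over arrays that share sets and genotypes. Piezo2 was at 4.51 (WT), 4.62 and 4.86 (Id controls), 6.32 in Id cKO, and 5.41 and 5.74 in the treated and untreated hearts. It met the level of 6 only through the Id cKO array, which also chose Nmrk2. Piezo2 encodes a mechanically gated ion channel, Col4a2 a basement membrane collagen chain, Fxyd6 a regulator of the sodium pump, Plau the urokinase plasminogen activator and Upp1 a uridine phosphorylase. Upp1 had levels of 5.66 (WT), 5.92 and 6.05 (Id controls), 7.52 in Id cKO, and 6.91 and 6.52 in the treated and untreated hearts. Fxyd6 was at 8.17 to 8.22 in WT and the Id controls, 10.36 in Id cKO, and 9.49 and 9.60 in the pair. As with Nmrk2, the Id cKO heart was highest and the pair lay in between. Among the other members with a range of at least 1, r with Nmrk2 was -0.68 for Nampt, -0.73 for Naprt and -0.59 for Nmnat1.

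**Figure D5:**
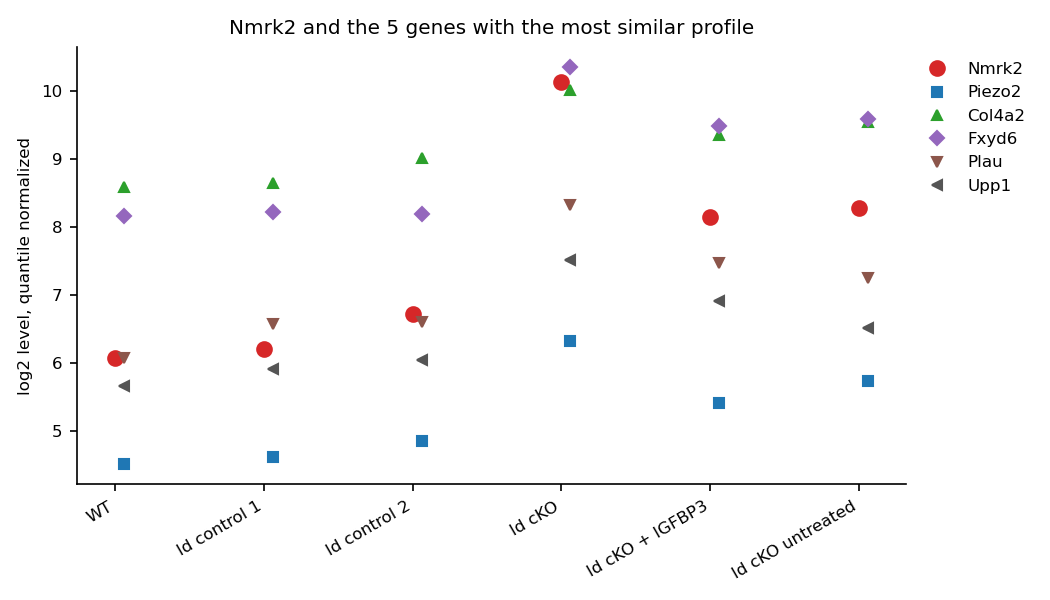
Normalized log2 level of Nmrk2 and of the 5 genes with the highest Pearson correlation to it, on each of the 6 arrays. In all 6 genes the Id cKO heart is highest, with Nmrk2 at 10.13, and the treated and untreated hearts lie above WT and both Id controls.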

How the data were processed

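The deposited table holds log2 expression values for 35557 probe sets on 6 arrays. The authors summarised them with RMA in Expression Console, as the submitters' processing notes list without versions. Of the probe sets, 21789 had 1 gene symbol in the platform annotation, 1621 several and 12147 none. The probe set with the highest mean stood for a gene, which gave 19938 genes, and the 7 member probe sets matched RefSeq (GRCm38.p6) by Entrez identifier. Values were used as deposited within a set of arrays and after quantile normalization of the 6 arrays across sets. Genes entered a comparison with at least 6 in the higher of both group means, and counted where every pair of arrays was at least 2-fold apart. One limma fit (3.58.1, R 4.3.3) held all 6 arrays as 5 groups, and p-values were adjusted by Benjamini-Hochberg over all genes compared (limit 0.05). Residual degrees of freedom (1) come from the Id control pair alone, so lone arrays are assumed to vary like it. The number of arrays limits the precision. Members, lists and tests were chosen with earlier results of these data known. Named were all members, genes of the NAD and integrin lists that were 2-fold apart or else the 4 with the largest differences, and the 5 genes most correlated with Nmrk2. Marker lists are given by counts and sums, in departure from that rule. Pnp, Sirt1, Sirt5, Parp1 and the marker genes printed were also named after their values were seen. The alternatives were other normalizations and floors, the mean of a gene's probe sets, and leaving out single arrays.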

Additional observations from a re-analysis of the deposited data

How the results depend on the processing

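Nmrk2 kept its direction and its side of the threshold under every alternative in which it was compared. With a floor of 8 it dropped out of Id control against WT and of treated against untreated. Its limma adjusted p ranged from 0.00898 to 0.0306 for the incubated pair against Id control and from 0.0115 to 0.0303 against WT. With a floor of 8, members are removed by construction. The pair then had 0 members 2-fold lower against Id control and 0 against WT, with 2 passing limma in each, and 1 member lay wholly below the other arrays over all 6. The same floor left 223 genes 2-fold apart for Id cKO against WT, 73 against Id control, 12 for Id control against WT, 39 for treated against untreated, 253 for the pair against Id control and 454 against WT, with 1760 and 1460 passing limma and 1422 without overlap. Without a floor, 1 gene passed limma for Id control against WT, 178 were 2-fold apart for treated against untreated, 6178 passed for the pair against Id control, 2 members were 2-fold above WT (Nmrk1 beside Nmrk2), and 5111 genes did not overlap. The main counts were 364, 127, 23, 97, 447 and 813 genes 2-fold apart, 0, 3580 and 2732 passing limma, and 3216 without overlap. Centring arrays on medians left 0 members 2-fold below WT. The untreated heart alone gave 2 members 2-fold below WT and 952 and 1419 genes 2-fold apart against Id control and WT. The treated heart alone gave 681 against Id control, 1893 and 1659 passing limma, and 3 members passing against WT. Leaving out either Id control array gave 286 to 300 genes for Id cKO against Id control, 57 to 203 for Id control against WT, and 655 to 718 for the pair against Id control. The array kept without replicate 1 shares a date code in the labels with WT and Id cKO. With 1 Id control array no residual degrees of freedom are left, so these are values without a test. No paired analysis was possible, because every group except Id control holds 1 array and the labels give no replicate numbers.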
